A study of Mus musculus with 3 samples.

Results

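The growth hormone and insulin-like growth factor (IGF) axis was followed here through 8 genes in mouse liver: Ghr, Stat5b, Igf1, Igfbp2, Igfbp3, Cish, Socs2 and Socs3. They were chosen by name, as 13 probe sets, the groups of short oligonucleotides by which an expression array reads a transcript. The deposited ratio table held 12 of the 13, of 19824 probe sets in all without the manufacturer's controls, and all 12 had a value on every array. The missing one, 1416576_at for Socs3, was in the deposited signal table. All mice were female BALB/c, an inbred laboratory strain. The 3 groups were young control at 10 weeks of age and old control at 50 weeks, both on normal food, and old Chlorella, at 50 weeks on food with 2.0% powder of the green alga Chlorella. Each group was 1 array, hybridized with liver RNA pooled from 6 mice. The series title names sensitization to ovalbumin, which the sample labels do not give for any array.

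Growth hormone from the pituitary binds its receptor on hepatocytes, and the receptor-bound kinase JAK2 then activates the transcription factor STAT5B. STAT5B drives transcription of Igf1, and the liver is the main source of the IGF-1 that circulates, bound to carriers such as IGFBP3 and the acid-labile subunit. It also drives Cish and Socs2, whose protein products inhibit the same receptor and so close a feedback loop. In rodents the hormone is secreted in pulses that are more widely spaced in males than in females, and a set of liver genes differs between the sexes for that reason.

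The deposited ratios are described as the log2 of an array's expression over the median of all samples, for each probe set. Were that the median of these 3 arrays, the middle array would equal it. Cish had ratios of 1.013 in young control, -0.524 in old control and 0.524 in old Chlorella, with none at the median. The median was therefore not taken over these 3 arrays alone, and its samples are not named. For a probe set it is the same on each array, so it cancels in a difference. The signal table holds log2 values whose differences between arrays equalled those of the ratios to within 0.001, so both describe the same measurement and the signal gives its level. Signals are given below on the linear scale, where the 2% trimmed mean was 500.0 on each of the 3 arrays. The values of a probe set are listed throughout as young control, then old control, then old Chlorella. A comparison is the difference of 2 log2 ratios, by age (old control minus young control) or by diet (old Chlorella minus old control), and a difference of 1 (2-fold) or more was counted. Because a group is 1 array, no difference has a replicate check and no p-value was computed. A pool also hides how far its mice differed from each other. In liver RNA, fewer cells of a type and less RNA per cell cannot be told apart.

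On their member probe sets, the feedback inhibitors Cish and Socs2 were lower in the old than in the young control mice. Stat5b and Socs3 were lower by less than 2-fold. Igf1 was lower on 2 of its 3 member probe sets by less than 2-fold, and the member probe set of the receptor Ghr differed little. With Chlorella in the food, Cish and both member probe sets of Socs2 were higher than in old control. The member probe sets of Igf1, Ghr and Stat5b stayed within 1.10-fold of old control. A Socs2 probe set of low signal outside the member list went the other way by age and by diet. By age 2 of the 12 probe sets were lower by 2-fold or more (Cish and 1 of Socs2) and 0 were higher, where 8.8% of all 16667 probe sets with both values were lower and 9.55% higher. By diet 1 of 12 was higher by that much (Cish) and 0 were lower, where the shares over all 16524 probe sets were 0.841% and 0.678% (1.52% together). The members' share of 2-fold differences by age, 16.7%, was close to the 18.3% of all probe sets. The age and the diet comparison share the old control array, so a value of that array that is off moves both in opposite directions.

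**Figure D1:**
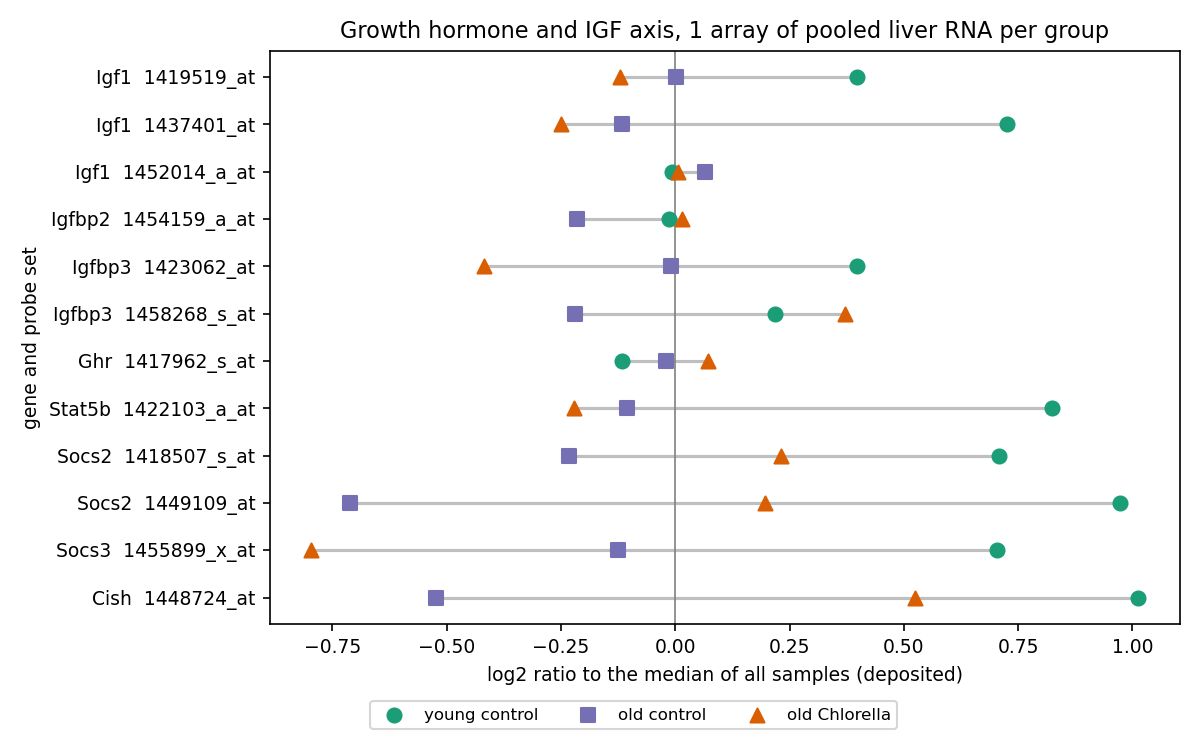
Deposited log2 ratio (x axis) of the 12 member probe sets (y axis) on the young control (circles), old control (squares) and old Chlorella (triangles) arrays, 1 array of pooled RNA each, with a grey line from the lowest to the highest value. Cish and both Socs2 probe sets are lowest in old control, with old Chlorella between it and young control, while Socs3 is lowest in old Chlorella.

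Ghr encodes the growth hormone receptor. Its member probe set 1417962_s_at had signals of 15123, 16175 and 17230, with little between the arrays. The differences were 0.10 (log2) by age and 0.09 by diet, and the one by age turned negative after both shifts to bacterial controls and after quantile normalization of the signals. The probe sets of Ghr outside the member list did not go one way by age, with 0.54 on one (signals of 14239, 20758 and 19295) and -0.54 on the other (4284, 2942 and 3257). By diet the pair differed by -0.11 and 0.15.

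Stat5b, which encodes the transcription factor that carries the receptor's signal to the nucleus, had signals of 1210, 635 and 586 on 1422103_a_at. Young control was the high array and the old arrays were close to each other. The difference was -0.93 by age (1.91-fold lower in old control) and -0.12 by diet, and old Chlorella was 1.05 below young control (2.07-fold lower). A probe set of Stat5b outside the member list (496, 250 and 278) gave -0.99 by age and 0.16 by diet, so the direction by diet differed between the probe sets of the gene. It also differed between scalings, being positive after both shifts to bacterial controls.

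Igf1 encodes IGF-1, the factor through which growth hormone acts on growth in many tissues. Signals were 8927, 6784 and 6235 on its first member probe set (1419519_at) and 14688, 8200 and 7481 on the second (1437401_at). On both, young control was highest and old Chlorella lowest. The third (1452014_a_at) had 24062, 25317 and 24293 and thus little difference between the arrays. It was the Igf1 probe set of highest signal, and the part of signal level was not tested. By age the 3 probe sets differed by -0.40, -0.84 and 0.07, a mean of -0.39 (1.31-fold lower in old control), and 34.3% of all probe sets were at or below the first of these values, 13.5% at or below the second. A further Igf1 probe set (12895, 8717 and 8396) gave -0.57 by age and -0.05 by diet. By diet the 3 members differed by -0.12, -0.13 and -0.06, and their mean became positive when the arrays were shifted to either kind of bacterial control.

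Igfbp2 and Igfbp3 encode binding proteins that carry IGFs in blood. Igfbp2 (1454159_a_at) had signals of 9914, 8616 and 10107, with old control the lowest by a small margin. Its differences were -0.20 by age and 0.23 by diet. Igfbp3, which in rat liver is made mainly by cells other than hepatocytes, had signals of 621, 468 and 353 on the first probe set (1423062_at) and 476, 352 and 529 on the second (1458268_s_at). By age the differences were -0.41 and -0.44, below 0 on both. The 2 probe sets therefore disagreed on old Chlorella, which was 0.41 below old control on the first and 0.59 above it on the second, and no direction by diet can be given for the gene.

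Cish encodes CIS, a STAT5-induced inhibitor of cytokine and growth hormone receptors. Its signal on 1448724_at was 1607 in young control, 554 in old control and 1145 in the mice given Chlorella. Old control was thus the low array, and old Chlorella lay nearer to young control. The difference was -1.54 by age (2.90-fold lower in old control), and 1.65% of all probe sets were at or below this value. By diet it was 1.05 (2.07-fold higher in old Chlorella), with 0.72% of all probe sets at or above it. Old Chlorella stayed 0.49 below young control, a difference that was 0.15 above 0 after quantile normalization of the ratios.

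Socs2 encodes the inhibitor whose loss in mice causes overgrowth through growth hormone signalling. Signals were 2086, 1087 and 1500 on the first member probe set (1418507_s_at) and 2158, 672 and 1259 on the second (1449109_at). The order of the arrays was that of Cish on both. The differences by age were -0.94 and -1.68 (1.92- and 3.21-fold lower in old control), the second with 1.01% of all probe sets at or below it. Those by diet were 0.46 and 0.91 (the second 1.88-fold higher in old Chlorella), with 8.17% and 1.21% of all probe sets at or above them. Another 4 probe sets are assigned to Socs2 but do not follow this order. One of these, with signals of 88.6, 138 and 96.8, differed by 0.64 by age and -0.51 by diet. The remaining 3 were not in the ratio table, and their signals reached at most 144 on any array. With the one of 4 that had ratios counted in, the mean of Socs2 by age was -0.66 in place of -1.31.

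Socs3 encodes the inhibitor induced mainly through STAT3 by cytokines such as interleukin-6. On 1455899_x_at, the member in the ratio table, its signals were 322, 181 and 114, with young control highest and old Chlorella lowest. The differences were -0.83 by age and -0.67 by diet, and old Chlorella was 2.83-fold lower than young control. These signals are low: the median of the signals without a ratio was 104.8 on the old Chlorella array. A further probe set (267, 218 and 183) gave -0.30 by age and -0.25 by diet. The member outside the ratio table had signals of 172, 161 and 190 and differed by -0.09 and 0.24, so the probe sets of Socs3 disagreed on the direction by diet.

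The STAT5 recognition motif TTCNNNGAA, a palindrome that reads the same on both strands, was looked for in RefSeq promoters of the members (mouse build GRCm38.p6, 250 bases before to 50 after a transcript's start). A promoter was given for 7 of the 8 genes, 10 promoters in all, and Socs2 had none. The motif was in 2 of the 10. In all 32851 promoters of the same length 8.3% held it and 0.457% held 2 or more. Cish, the gene with the widest range of mean ratio over the arrays (1.54, although 1 Socs2 probe set, from 0.97 to -0.71, ranged wider), had 2 matches that do not overlap, at positions 1 and 12 counted from the first transcribed base. Socs3 had 1 match at position -154. Both stretches are shown because they hold the only matches among the members' promoters, with the motif in capitals, 5′ to 3′. The first is chr9:107296559-107296678 on the plus strand, and the second chr11:117969482-117969550 on the minus strand.
Cish: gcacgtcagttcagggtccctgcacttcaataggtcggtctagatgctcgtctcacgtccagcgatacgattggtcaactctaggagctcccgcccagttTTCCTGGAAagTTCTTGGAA
Socs3: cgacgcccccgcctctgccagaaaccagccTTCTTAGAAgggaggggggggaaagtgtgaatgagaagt

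**Figure D2:**
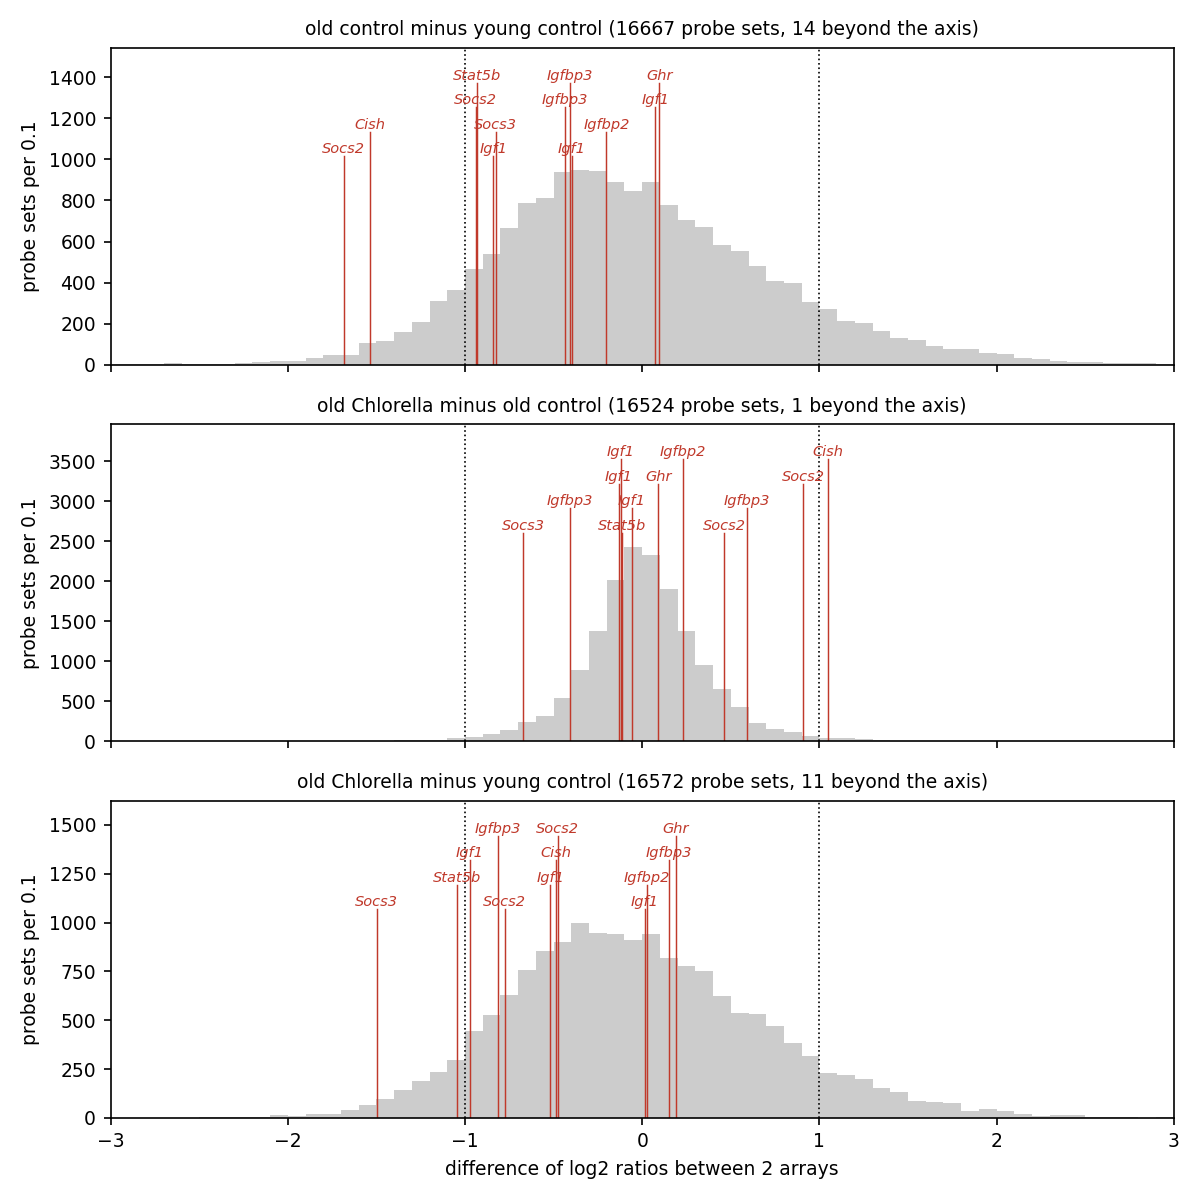
Distribution of the differences of log2 ratios over all probe sets (grey bars, number of probe sets per 0.1) for old control minus young control, old Chlorella minus old control and old Chlorella minus young control, with the 12 member probe sets as labelled red lines and 2-fold as dotted lines. By age 10 of the 12 lie below 0, and by diet Cish lies beyond 2-fold with 1 Socs2 probe set just short of it.

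By age 10 of the 12 member probe sets were below 0 and 2 above, with a median of -0.63 (log2), where 55.8% of all probe sets were below 0 and the median was -0.11. By diet 6 were above 0 and 6 below, with a median of 0.02 against 0.00 for all probe sets. The spread over all probe sets was wider by age (SD 0.775) than by diet (SD 0.347). Over all probe sets a difference of a given size was therefore rarer by diet: 8.65% differed by 1.5-fold or more, against 43.8% by age. Of the 12 members 8 differed by less than 1.5-fold by diet and 6 by age.

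Old Chlorella was compared with young control as well, a contrast in which age and diet differ together. Of the 12 probe sets 2 passed 2-fold, those of Socs3 and Stat5b, both lower, and 0 were higher by that much. Of all 16572 probe sets 15.2% passed it, 6.87% lower and 8.32% higher. Neither call held throughout: Stat5b, at -1.05, was -0.98 with array medians at 0, -0.87 and -0.85 after quantile normalization of ratios and of signals, and -0.94 over 2 probe sets. The other Socs3 probe sets gave -0.55 and, for the member outside the ratio table, 0.15. Igf1 was lower by 0.52 and 0.97 on the log2 scale on the first and second probe set and 0.01 higher on the third. Socs2 was lower by 0.48 and 0.78 on its 2 members. Ghr (0.19) and Igfbp2 (0.03) were nearly level, and both turned negative after the shifts to either kind of bacterial control and after quantile normalization of the signals.

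**Figure D3:**
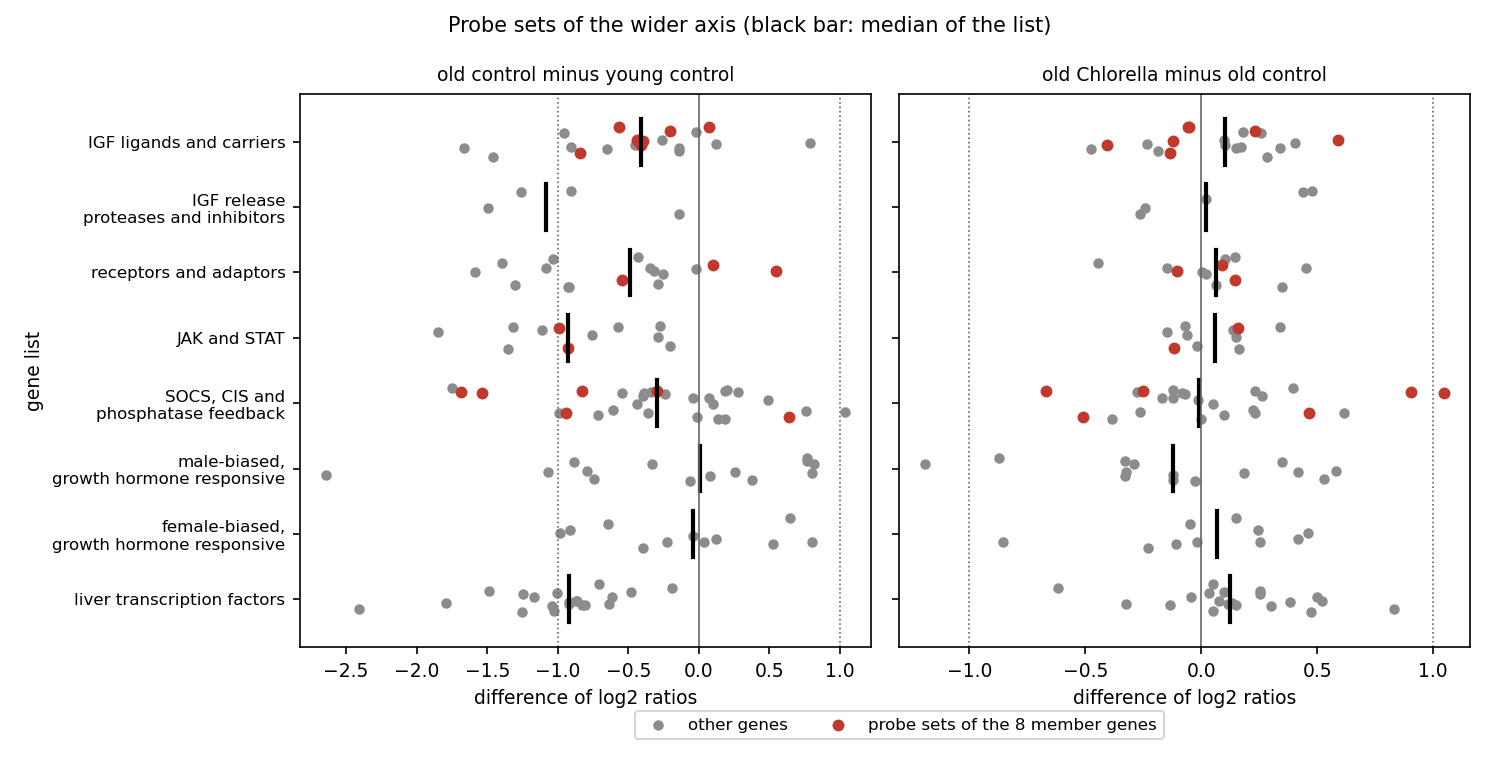
Differences of log2 ratios (x axis) for the probe sets of 8 gene lists of the wider axis (y axis), by age on the left and by diet on the right. Red points are probe sets of the 8 member genes, grey points other genes, black bars the median of each list, and dotted lines 2-fold. The lists of JAK and STAT genes and of liver transcription factors lie below 0 by age on every probe set.

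Around the members, 8 lists with 96 gene names were read (probe sets with 1 gene symbol). The lists include the 8 member genes, so their counts and medians are in part those of the members. A gene was counted when a probe set passed 2-fold and none of its probe sets with ratios went the other way. A gene with several probe sets has several chances to be counted, so the list counts are also given by probe set, to be read against the 8.8% of all probe sets that were 2-fold lower by age, the 9.55% higher and the 55.8% below 0. Among IGF ligands and carriers, 2 of 9 genes were lower by age and 0 higher. By probe set this was 2 of 19, near the share of all probe sets, with a median of -0.41. Igfals encodes the acid-labile subunit, which holds IGF-1 and IGFBP3 in the long-lived complex of blood. Its signals were 3655, 1151 and 1456, a difference of -1.67 by age (3.18-fold lower) and 0.34 by diet. Igfbp4, another binding protein, was lower on all 6 probe sets, by a mean of 0.62 on the log2 scale, but its probe sets ranged from -1.46 to -0.02. The first of these values was on its probe set of lowest signal (8800, 3208 and 3911). The second was on one of higher signal (25545, 25178 and 28515), and the part of signal level was not tested. Igfbp1, a binding protein that insulin represses, differed by 0.12 by age and -0.24 by diet. Igfbp5 was 1.19 higher in old Chlorella than in young control on a probe set of low signal (68.9, 119 and 157). Its other probe set, with no ratio in old Chlorella, went the other way (151, 112 and 105, a difference of -0.53 in the signal table). Igfbp7 differed in that comparison by -0.33 on a probe set of high signal (7786, 7080 and 6213) and -1.13 on one of low signal (162, 103 and 74.2), so that the 2-fold difference rests on the latter.

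Among the receptors and adaptors 5 of 10 genes were lower in old control and 0 higher, by probe set 5 of 16 against 8.8% of all, with a median of -0.49. They included the insulin receptor Insr, with signals of 1290, 523 and 547 and -1.30 by age. Grb14, an adaptor that inhibits the insulin receptor, gave -1.04, the IGF-2 and mannose-6-phosphate receptor Igf2r a mean of -1.01 over 2 probe sets, and the docking protein Gab1 a mean of -0.999. Grb10, an adaptor that inhibits insulin and IGF-1 receptors, had signals of 436, 165 and 122 on one probe set. This gave -1.40 by age and -0.45 by diet, and old Chlorella was 1.84 below young control. The other probe set of Grb10 was of low signal (51.7, 51 and 31) and gave -0.02 by age. Among JAK and STAT genes 2 of 5 were lower in old control and 0 higher, by probe set 4 of 11 against 8.8% of all. All 11 probe sets were below 0, against 55.8% of all, with a median of -0.93. Stat5a, the close relative of Stat5b, gave -1.31 and -1.85 and Stat3, which carries interleukin-6 signals, -1.12 and -1.35. The kinase Jak2 gave -0.57 and -0.29.

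Among SOCS, CIS and phosphatase genes, which restrain the signal, 2 of 14 were lower in old control and 0 higher, namely Cish and Socs7. By probe set 3 of 29 were lower, near the 8.8% of all probe sets, and 1 was higher, below the 9.55% of all. The median was -0.30. Socs7 had a mean of -1.07 over the 2 probe sets with both values, and another, with no ratio in old control, went the other way (82.5, 154 and 112, a difference of 0.90 by age in the signal table). Socs2 and Pias1 had probe sets with ratios past 2-fold that went against another probe set of the gene. Of 8 IGF-releasing proteases and inhibitors only 2 could be compared by age, and the membrane metalloprotease Mmp14 was lower on its 3 probe sets by a mean of 1.22 on the log2 scale. Among liver transcription factors 5 of 9 genes were lower in old control and 0 higher, by probe set 9 of 20 against 8.8% of all. All 20 probe sets were below 0, against 55.8% of all, with a median of -0.92. Cebpb, a factor of the acute-phase response, gave a mean of -1.83. Hnf4a, a factor central to hepatocyte identity, gave -1.33 over 4 probe sets, Foxa1 gave -1.25 and the glucocorticoid receptor Nr3c1 -0.80 over 5. Under the shift to either kind of bacterial control all of these negative differences by age would lie further below 0 by the same amount.

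By diet 2 of the 115 probe sets of the 8 lists passed 2-fold (1.74%), near the 1.52% of all probe sets. In 7 of the 8 lists the number of genes at least 2-fold higher was 0, and in 7 it was 0 for those lower. Besides Cish, the gene counted was Nudt7, a peroxisomal coenzyme A hydrolase, with a mean of -0.53 over 4 probe sets that ranged from -1.19 to -0.29. Its 2-fold difference rests on 1 probe set of low signal (266, 470 and 206). The Nudt7 probe set of highest signal (17510, 29730 and 23644) gave -0.33. List medians by diet lay between -0.12 for male-biased genes and 0.13 for liver transcription factors.

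The 5 genes outside the axis whose ratios were most like those of Cish, by Euclidean distance over the 3 arrays, were Ptgfrn (0.217), Bcas3 (0.242), E2f8 (0.302), Wdfy3 (0.335) and Syncrip (0.335). They were taken from 14296 probe sets with 1 gene symbol and 3 values, using the closest probe set of a gene. Their signals were low, from 208 to 322 in young control and from 68 to 125 in old control. With 3 arrays such likeness describes these arrays only.

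Hepatocyte markers had high signals on all 3 arrays: the summed signal of 13 probe sets for Alb, Ttr, Apoa1, Apoa2, Fgb, Cps1 and Tat was 542235, 694957 and 657823. By age 11 of the 13 were above 0, but most of the 13 read Ttr or Apoa1. The 2 below 0 were those of Fgb (-0.38) and Tat (-0.62), where 55.8% of all probe sets were below 0. Markers of blood leukocytes moved with age. On 11 probe sets they summed to 2179, 10224 and 13475. The higher sum in old Chlorella rests on S100a8 (408, 3628 and 5748) and S100a9 (364, 2623 and 4269), and 5 of 8 differences by diet were below 0. By age 6 of the 7 with both values passed 2-fold, all higher, and the B-cell gene Ms4a1 gave 2.91 and 3.30. The macrophage list summed to 19615, 35234 and 35085, the endothelial list to 10233, 15878 and 14686, and the stellate cell and fibroblast list to 16527, 23863 and 22463. The last 2 sums rested on 1 probe set each, Clec4g (5874, 13022 and 11647) and Dcn (9916, 18429 and 17460). In the macrophage list the largest rise by age was that of Vsig4 (4020, 14236 and 13167, a difference of 1.82). Of its 9 probe sets 6 were above 0 by age, and 3, those of Csf1r, were below. By probe set 4 of 7 endothelial and 5 of 8 stellate differences by age were below 0, with medians of -0.72 and -0.25, and Kdr (-1.18) and Pdgfrb (-1.05) were past 2-fold lower. Erythroid (735, 1125 and 701), adipocyte (1954, 2923 and 2344) and exocrine pancreas genes (7761, 9742 and 8291) were read too, and cholangiocyte genes summed to at most 451. No probe set of these lists was at 0 on any array. The part of these cells in the members' differences was not tested. The bacterial controls differed by age by a median of 0.46 (hybridization controls) and 0.75 (poly-A controls) and by diet by -0.14 and -0.32, and their part was not tested either beyond the shifts given with the settings.

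**Figure D4:**
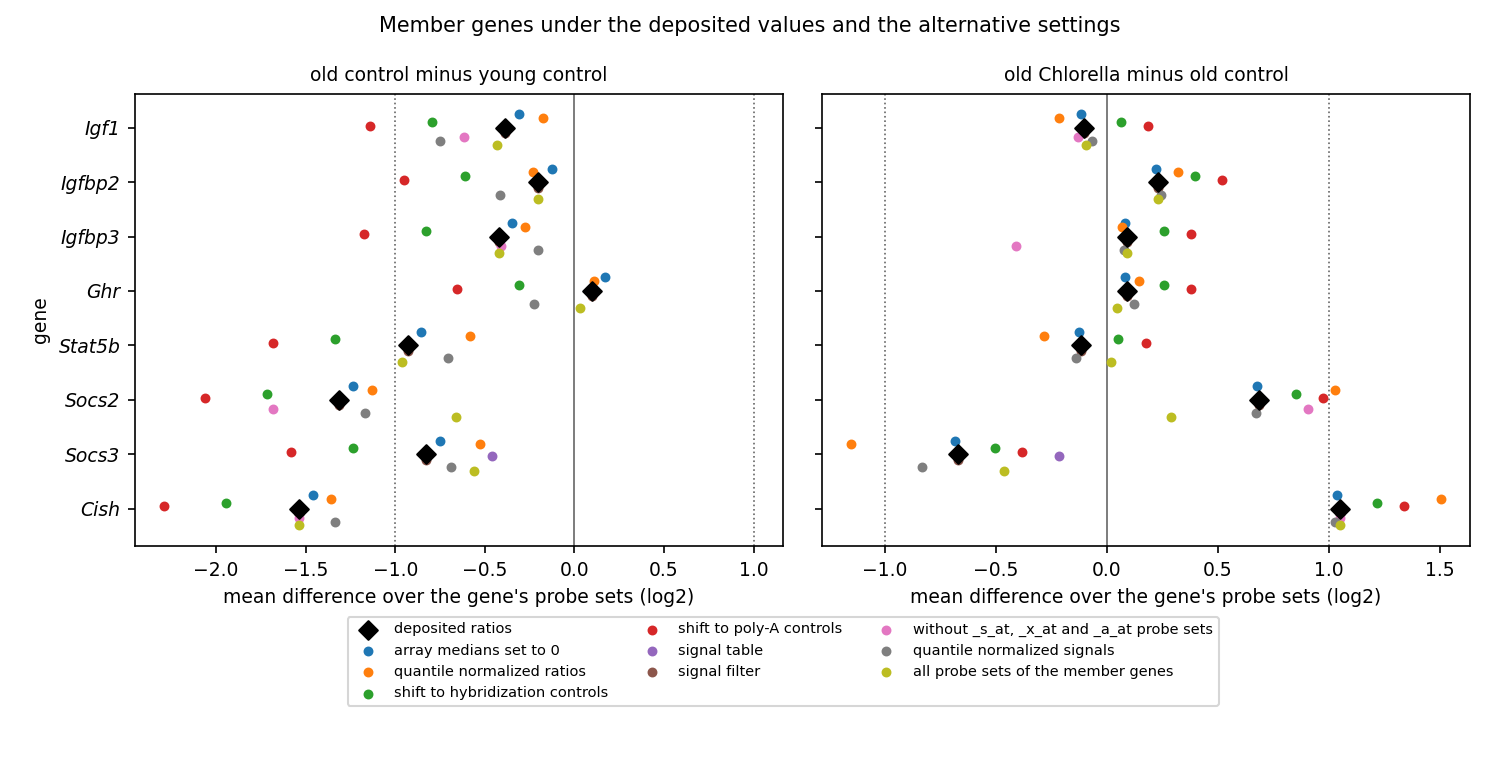
Mean difference of log2 ratios over each member gene's probe sets (x axis, genes on the y axis) for old control minus young control (left) and old Chlorella minus old control (right). Black diamonds are the deposited ratios, coloured points the alternative settings, some of which lie under a diamond, and dotted lines mark 2-fold. Cish stays beyond 2-fold in every setting shown, between -2.29 and -1.34 by age and at 1.03 or more by diet. Only the rescalings could move Cish, which has 1 probe set.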

How the data were processed

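Liver RNA was measured on 3 one-colour Affymetrix arrays. The deposited ratio table gives log2 ratios to the median of all samples, per the file header, and the deposited signal table gives log2 values. MAS5 is named in the submitters' processing notes, and its scaling target is not given in these sources. The columns headed Young and Chlorella match 1 title each, and Old was taken as old control. The signal table, headed by sample, gave the same differences to within 0.001 for all pairs. No column of values was left unused (0). Genes were named from GEO's platform annotation with symbols updated by gene ID: of 19824 probe sets 17502 had 1 symbol, 546 several and 1776 none. Differences between arrays were computed in Python 3.11.15 with pandas 2.3.3, and the counting was tested on simulated data. The members and lists were chosen with earlier results of these data known. Besides members, at most 4 genes per list and comparison were named, those with the largest mean difference among genes past 2-fold on a probe set with no probe set of opposite sign, and the 5 genes most like the member gene of widest range. Igfbp1, Jak2, Pias1, the single marker genes and the genes of the closing section were named after their values were seen. There were 8 planned and 2 added alternatives.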

Additional observations from a re-analysis of the deposited data

How the results depend on the processing

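Each group was 1 array, so no array could be left out. No paired analysis was possible because each group is 1 array. Cish was past 2-fold by age and by diet under all alternatives that gave a value, but not all of these could change it. The gene has 1 probe set, and the signal table, the signal filter and the changes of probe sets returned its deposited differences, -1.54 and 1.05. Only the rescalings could move Cish. By diet they gave as little as 1.028 (quantile normalization of the signals) and 1.037 (medians of the arrays set to 0), close to the cut-off of 1. Of 24 gene differences, 17 kept their sign in all alternatives and 7 changed it in at least 1, all of them under 2-fold. The number of member probe sets at least 2-fold lower by age, 2, became 6 after a shift to the hybridization controls, 9 after a shift to the poly-A controls, 3 with quantile normalized signals and 6 at 1.5-fold. The share of all probe sets lower there was 23.8%, 42.6%, 6.79% and 24.2%, against 8.8%. Those higher by diet, 1, became 2 after either shift and after quantile normalization of the ratios, and 3 at 1.5-fold, where 1.63%, 2.78%, 2.55% and 4.55% of all were higher, against 0.841%. Those lower by diet, 0, became 1 after that normalization and at 1.5-fold (2.64% and 4.1% of all, against 0.678%). Those lower between old Chlorella and young control, 2, became 1 with array medians at 0 and after quantile normalization of the ratios, 5 after either shift and at 1.5-fold, and 0 without the probe sets that can match several transcripts, which leaves 5 members. Of all probe sets 5.67%, 4.79%, 14% and 24.2% (the shifts), 21.7% and 6.22% were lower there, against 6.87%. Stat5b in that comparison, -1.05, became -0.98 with array medians at 0, -0.87 and -0.85 after quantile normalization of ratios and of signals, and -0.94 over its 2 probe sets. Socs3 there, -1.50, became -0.68 with the second probe set of the signal table. Socs2 by age, -1.31, became -0.66 over 3 probe sets. The cause of the changes with scaling was not tested. The shifts moved the median of all probe sets by age from -0.11 to -0.52 and -0.87, and by diet from 0.00 to 0.17 and 0.29. Increases made up 52.0% of the 2-fold differences by age, and 15.5% and 4.78% after the shifts; by diet 55.4%, and 80.8% and 90.6%, or 42.2% with quantile normalized signals. In the signal table, which includes probe sets of low signal, 37.8% of 45037 probe sets differed 2-fold by age and 27.4% by diet, against 18.3% and 1.52%. A signal filter at the 25th percentile removed none of the compared probe sets. Quantile normalization of the signals and the use of all probe sets of the 8 genes were chosen after seeing the data.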

Other observations

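Liver genes that follow the sex-specific pattern of growth hormone secretion did not all go one way. In the ratio table, of 9 male-biased genes compared by age 2 passed 2-fold, both lower, and 0 were higher, with a median of 0.01, and of 9 female-biased genes 0 were lower and 0 higher. By probe set 2 of 14 and 0 of 11 were lower and 0 higher in both, where 8.8% of all probe sets were lower and 9.55% higher. Cyp2d9, a male-biased cytochrome P450, had signals of 4218 in young control, 675 in old control and 620 in old Chlorella (-2.64 by age). Elovl3, a fatty acid elongase, gave -1.07. Among female-biased genes 5 probe sets were above 0 by age and 6 below, with a median of -0.04. Cyp2b9 gave -0.91, Sult3a1 -0.98 and Cyp3a44 0.12, while Hamp2 gave 0.52 and Atp6v0d2 0.65 and 0.80. In old Chlorella, Prom1 was 1.08 below and Atp6v0d2 a mean of 0.92 above young control.

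Of 61 probe sets of the 8 lists with no age difference in the ratio table, 5 had a signal above the 75th percentile on an array. Hsd3b5, a steroid-metabolizing enzyme of male mouse liver, had signals of 1671 in young control, 50.6 in old control and 65 in old Chlorella. Slco1a1, an organic anion transporter and also male-biased, had 2927, 35 and 31.3 on one probe set and 2248, 86.2 and 30.5 on another. Young control was the high array on all 3, and the old arrays lay near or below the median signal of cells without a ratio (87.5 and 104.8). The remaining 2, for Tyk2 (384, 343 and 375) and Ptpn6 (1027, 712 and 651), differed less. Of the Y-linked genes read, Eif2s3y had signals of at most 14.9, Kdm5d of at most 66.7 and Uty of at most 100 on any array. Xist, which is transcribed from the inactive X chromosome of females, had 1052, 2463 and 2582 on one probe set and 1268, 3305 and 2740 on another, lowest in young control.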
